A study of Mus musculus with 9 samples.

Results

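The nicotinic acetylcholine receptor subunits are 6 genes of the 12388 gene symbols measured in these embryonic mouse retinas, taken as every row whose gene symbol starts with Chrna or Chrnb. Chrna3, Chrna4, Chrna5, Chrnb2 and Chrnb4 stand in both deposited tables, and Chrnb1 stands in the table of mutant against heterozygote alone. A row is present only where a transcript reaches about 1 RPKM (reads scaled by transcript length in kilobases and by library depth), and the family was chosen by its measured values, the RPKM and q-values of these same tables. Its own ratios are therefore a description, and the deposited p-values and q-values are printed as values that support nothing further.

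RNA was sequenced from retinas of CD-1 embryos at E12.5, with 3 samples in each of 3 groups that differ in their alleles at Neurog2, which encodes a basic helix-loop-helix factor that promotes neurogenesis. The knock-in group was Neurog2GFP/Mash1KI, the mutant group Neurog2GFP/GFP and the heterozygote group Neurog2GFP/+, so all 3 groups carry at least 1 GFP allele at Neurog2 and no group is wild type. Each sample was a pair of optic cups that showed GFP, taken apart into single cells with no sorting step in the labels. The deposited tables hold 1 pooled value per transcript and group, so no value per sample and no spread between replicates can be printed, and the depth per sample is unknown.

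Neurog2 itself was at 36.2 RPKM in the mutant group and 30.2 RPKM in heterozygote retinas, with q = 0.993 in the authors' deposited table. It was at 112 RPKM in the knock-in group and 35.5 RPKM in the mutant group, with q = 0.0104 in the authors' deposited table. The RPKM does not say which allele, or which part of the gene, the reads came from. The Neurog2 values thus cannot show whether the coding sequence was lost or kept in any group. The groups are called mutant-labelled and knock-in-labelled below, after the labels alone. RNA of sex-linked genes also differed between the groups: the Y-linked gene Eif2s3y, named after its values were seen, was listed at 0 in mutant-labelled retinas and was at 21.9 RPKM in heterozygote retinas, while knock-in-labelled retinas had 28.6 RPKM; the part of embryo sex in the results was not tested. The titles give the mutant and heterozygote samples a number in common and the knock-in samples a different one. If that number stands for a litter or batch, its effect and that of the knock-in label cannot be told apart.

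Nicotinic receptors are ion channels that acetylcholine opens, built as rings of alpha and beta subunits; most neuronal ones pair an alpha subunit such as that of Chrna3 or Chrna4 with a beta subunit such as that of Chrnb2 or Chrnb4, while the Chrna5 subunit joins other alpha and beta subunits as an accessory and Chrnb1 belongs to the receptor of skeletal muscle. In the developing retina these receptors stand on ganglion cells and amacrine cells, and in mouse they carry the spontaneous waves of activity that cross the retina before photoreceptors work. In chick, the promoter of another member, Chrnb3, is bound by the retinal basic helix-loop-helix factor ATOH7. Factors of this class bind the sequence CANNTG, called an E-box.

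Chrna5, Chrna3 and Chrnb4 lie side by side on chromosome 9, from base 54980880 to base 55048544 in the authors' loci (mm10), a span of 67.7 kb. Chrna5 is on the plus strand, and Chrna3 and Chrnb4 are on the minus strand, each with 6 exons in the GENCODE transcript of most exons. The promoter windows of these 3 genes are shown because the genes are neighbours, moved in the same direction and were measured in retinas whose groups differ in a factor of the E-box-binding class. They are RefSeq windows on GRCm38.p6, the assembly behind mm10, from 250 bases before to 50 bases after the start site, and each start site lies within 3 bases of the start of the authors' locus. Capitals mark every CANNTG, a sequence that reads the same way on both strands; in the first window, 2 of them overlap. The windows are chr9:55026513-55026812 on the minus strand for Chrna3, chr9:55048495-55048794 on the minus strand for Chrnb4 and chr9:54980630-54980929 on the plus strand for Chrna5.
Chrna3: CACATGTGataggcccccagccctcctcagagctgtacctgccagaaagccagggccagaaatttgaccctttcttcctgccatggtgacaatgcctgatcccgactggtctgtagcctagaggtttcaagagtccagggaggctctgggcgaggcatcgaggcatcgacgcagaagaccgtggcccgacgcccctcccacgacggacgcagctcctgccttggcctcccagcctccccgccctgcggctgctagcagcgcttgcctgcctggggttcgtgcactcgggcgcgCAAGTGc
Chrnb4: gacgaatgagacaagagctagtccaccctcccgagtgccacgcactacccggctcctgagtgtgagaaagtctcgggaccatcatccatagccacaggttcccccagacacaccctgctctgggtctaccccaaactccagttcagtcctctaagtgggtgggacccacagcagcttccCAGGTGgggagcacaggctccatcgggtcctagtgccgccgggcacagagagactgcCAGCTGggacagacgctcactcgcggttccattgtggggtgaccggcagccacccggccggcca
Chrna5: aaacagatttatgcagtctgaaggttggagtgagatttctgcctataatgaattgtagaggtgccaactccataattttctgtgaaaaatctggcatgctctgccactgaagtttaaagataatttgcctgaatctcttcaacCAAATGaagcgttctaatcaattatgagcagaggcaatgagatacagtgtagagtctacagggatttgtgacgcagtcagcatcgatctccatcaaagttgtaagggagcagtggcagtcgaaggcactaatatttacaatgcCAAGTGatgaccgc

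The Chrna3 window held 3 E-boxes, the Chrnb4 window 2 and the printed Chrna5 window 2. RefSeq has a second Chrna5 window, not printed, whose start site lies 608 bases inside the gene and which held 2 other E-boxes, CACCTG and CAGGTG. At least 1 CANNTG is present in 72.3% of all 32851 RefSeq promoter windows of this length, with a mean of 1.39 per window, so its presence is common. The form CAGCTG, read on both strands, was found in the Chrnb4 window, starting 14 bases before the start site, and is present in 16.3% of all windows. The form CAGATG, read on both strands, was found in none of these 3 windows and is present in 17.2% of all windows. The GC content was 64.3% for the Chrna3 window, 63.0% for the Chrnb4 window, 41.3% for the printed Chrna5 window and 65% for the second Chrna5 window. All 5 members listed in both tables had a RefSeq window. The Chrnb2 window held 2 E-boxes. The Chrna4 window held none, but its start site lies 4369 bases inside the authors' locus, so it may not be the start used here. A match of letters is not a binding site, and its absence from a window says nothing about a factor.

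The question put by setting mutant-labelled beside heterozygote retinas is what a second GFP allele at Neurog2 changes. All 5 neuronal subunit genes had lower summed values in mutant-labelled retinas, and Chrna3, Chrna4, Chrna5 and Chrnb4 were called lower. Chrna3, the subunit gene with the most abundant RNA here, was at 64.4 RPKM in mutant-labelled retinas and 112.9 RPKM in heterozygote retinas. Chrna4, whose subunit is a main partner of the Chrnb2 subunit in the brain, was at 41.4 RPKM in mutant-labelled retinas and 67.5 RPKM in heterozygote retinas. The summed RPKM of the 5 genes was 134 in mutant-labelled retinas and 227 in heterozygote retinas. A call here is a q of 0.05 or less in the authors' deposited table; 4 of the 6 genes were called lower, where 1.09% of all 12247 genes were and 0.245% were called higher. At an unadjusted p of 0.05 or less the same 4 genes had a lower transcript, where 6.21% of all genes did. Because the family was chosen with this contrast known, nothing is read from these shares. The calls also depend on how the statistic was turned into a p: with a two-sided normal p from the deposited statistic, 0 of the 6 genes were called, an alternative chosen after seeing the data.

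Among the alpha subunits, Chrna3 fell by 0.81 on the log2 scale (p = 5e-05, q = 0.0109 in the authors' deposited table), a level 43.0% lower. Chrna4 (chromosome 2, 181018380 to 181043546) fell by 0.70, a level 38.6% lower, with the same p = 5e-05 and q = 0.0109 in the authors' deposited table. Chrna5 was at 1.34 RPKM in mutant-labelled retinas and 3.10 RPKM in heterozygote retinas. It fell by 1.21 on the log2 scale, the largest fall of the 6 members, with q = 0.0109 in the authors' deposited table. Chrna5 was also the least abundant of the called members, so its larger ratio rests on the lowest read density. Rankings of these falls carry no test, because no spread between samples is available.

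Among the beta subunits, Chrnb4 was at 25.1 RPKM in mutant-labelled retinas and 39.4 RPKM in heterozygote retinas. It fell by 0.65 on the log2 scale, with q = 0.0109 in the authors' deposited table. Chrnb2, the beta subunit on which the cholinergic retinal waves of mice depend, was listed as 2 transcripts. The more abundant one was at 1.61 RPKM in mutant-labelled retinas and 2.35 RPKM in heterozygote retinas (log2 ratio -0.55, q = 0.993 in the authors' deposited table). The other was at 0.592 RPKM in mutant-labelled retinas and 2.04 RPKM in heterozygote retinas (log2 ratio -1.78, q = 0.993 in the authors' deposited table). Summed, Chrnb2 was at 2.20 RPKM in mutant-labelled retinas and 4.39 RPKM in heterozygote retinas, a log2 ratio of -0.996, and no Chrnb2 transcript was called. The authors' Chrnb2 locus (chromosome 3, 89715022 to 89764632) also holds transcripts of Adar, and the 2 Chrnb2 transcripts share it, so how reads were divided among them is uncertain.

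Chrnb1, the muscle beta subunit (chromosome 11, 69784036 to 69795943), was at 0.901 RPKM in mutant-labelled retinas and 0.923 RPKM in heterozygote retinas, with q = 0.995 in the authors' deposited table. It is the member just inside the limit of the tables, since the lowest value of the higher group in any row is 0.906 RPKM in this table and 1.04 RPKM in the other, where Chrnb1 has no row. The other 6 neuronal subunit genes sought, Chrna2, Chrna6, Chrna7, Chrna9, Chrna10 and Chrnb3, and the other 4 muscle subunit genes, Chrna1, Chrnd, Chrne and Chrng, have no row in the tables and were not analysed here. Of 12 skeletal muscle markers, 2 had rows, Actc1 and Tnnc1, with a summed 2.64 RPKM in mutant-labelled retinas and 1.40 RPKM in heterozygote retinas.

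**Figure D1:**
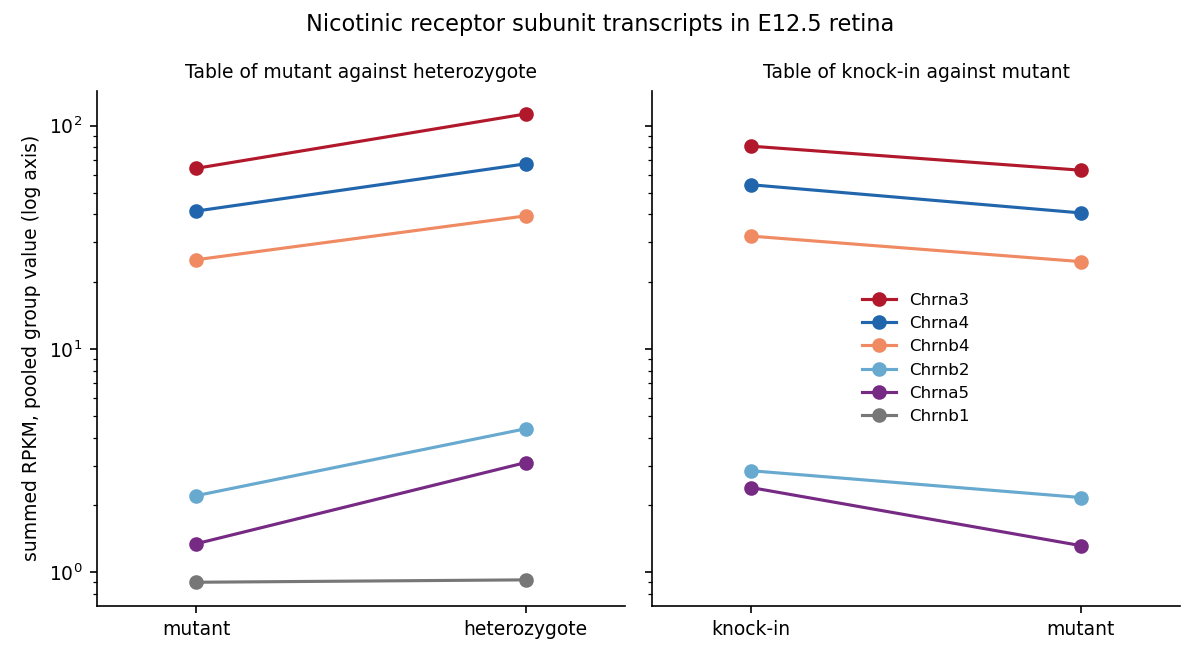
Summed RPKM of each nicotinic subunit gene as 1 pooled value per group, on a log axis, in the table of mutant against heterozygote (left) and of knock-in against mutant (right); lines join the values of a gene and no error is available. In the left panel the neuronal subunits are lower in the mutant group, Chrna3 at 64.4 RPKM against 112.9 RPKM in the heterozygote group, and Chrnb1 is nearly level; in the right panel they are higher in the knock-in group, Chrna3 at 80.9 RPKM against 63.1 RPKM in the mutant group.

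The order of the levels was the same in both groups: Chrna3, Chrna4, Chrnb4, Chrnb2, Chrna5 and, in the first table, Chrnb1. Whether neighbours in this order differ cannot be tested without values per sample, and the closest pair, Chrnb2 and Chrna5, were at 2.20 and 1.34 RPKM in mutant-labelled retinas and at 4.39 and 3.10 RPKM in heterozygote retinas. In the heterozygote group Chrna3 ranked 850 of 12247 genes by summed RPKM, Chrna4 ranked 1509 and Chrnb4 ranked 2658, while Chrnb2 and Chrna5 ranked 9487 and 10235. The make-up of the family was similar in both groups. Chrna3 gave 47.9% of the summed RPKM of the 5 neuronal genes in mutant-labelled retinas and 49.7% in heterozygote retinas, and Chrna4 gave 30.8% in mutant-labelled retinas and 29.7% in heterozygote retinas. Chrnb4 gave 18.7% in mutant-labelled retinas and 17.4% in heterozygote retinas. The ratio of Chrna3 to Chrnb4 was 2.57 in mutant-labelled retinas and 2.86 in heterozygote retinas. The ratio of Chrna4 to Chrnb2 was 18.8 in mutant-labelled retinas and 15.4 in heterozygote retinas. These are RNA levels and not numbers of receptors.

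Among the 134 genes called lower, the called subunits stood toward the abundant end with moderate falls, except for Chrna5. By heterozygote RPKM, Chrna3 ranked 8, Chrna4 ranked 14 and Chrnb4 ranked 30, against a median of 13.7 RPKM for the called genes. By the size of the fall they ranked 91, 110 and 121, against a median log2 ratio of -0.96, while Chrna5 ranked 27 by its fall and 110 by its level. The smallest p in the authors' deposited table is 5e-05, which 125 transcripts share, so these p-values do not order the members.

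**Figure D2:**
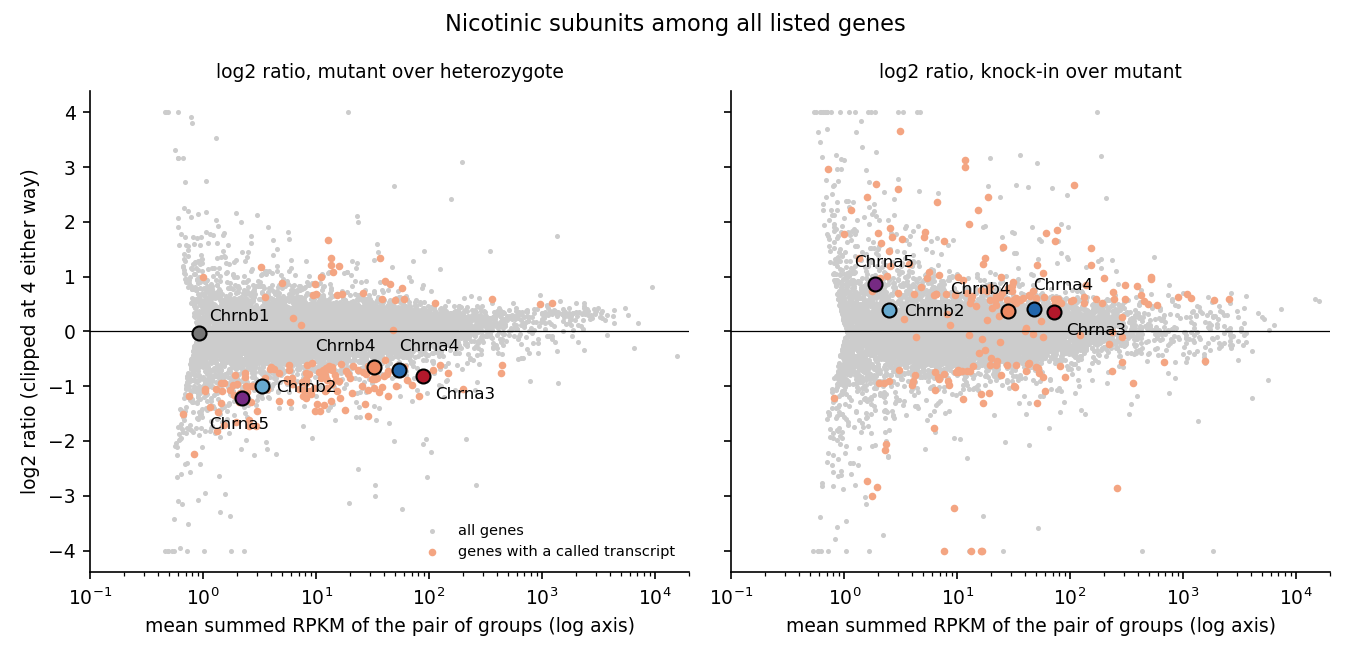
Log2 ratio of summed RPKM of each gene (clipped at 4 either way) against its mean summed RPKM over the pair of groups, on a log axis, for mutant over heterozygote (left) and knock-in over mutant (right); grey points are all genes with a finite ratio, orange points genes with a transcript at q of 0.05 or less, and large points the nicotinic subunits. Chrna3, Chrna4 and Chrnb4 lie at -0.81, -0.70 and -0.65 among the more abundant called genes on the left and at 0.36, 0.42 and 0.38 within the grey band on the right.

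The other comparison puts the knock-in allele in place of 1 of the 2 GFP alleles. All 5 neuronal subunit genes had higher summed values in knock-in-labelled retinas, but none was called. Their summed RPKM was 172 in knock-in-labelled retinas and 132 in mutant-labelled retinas. With Cuffdiff's q of 0.05 or less, 0 of 5 genes were called higher, where 1.03% of all 11989 genes were and 0.634% were called lower. At an unadjusted p of 0.05 or less, 4 of 5 had a transcript higher, where 8.57% of all genes did. The same mutant-labelled samples stand in both comparisons, above the line of the first ratio and below that of the other, so the opposite directions are not independent of each other.

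Chrna5 was at 2.39 RPKM in knock-in-labelled retinas and 1.31 RPKM in mutant-labelled retinas, a log2 ratio of 0.86 (p = 0.00225, q = 0.155 in the authors' deposited table). Chrna4 was at 54.3 RPKM in knock-in-labelled retinas and 40.6 RPKM in mutant-labelled retinas, a log2 ratio of 0.42 (p = 0.00245, q = 0.159 in the authors' deposited table). Chrnb4 was at 32.0 RPKM in knock-in-labelled retinas and 24.6 RPKM in mutant-labelled retinas, a log2 ratio of 0.38 (p = 0.00915, q = 0.340 in the authors' deposited table). The 3 share a direction, and the values of Chrna4 and Chrnb4 differ by 33.7% and 30.1% of the mutant-labelled level.

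Chrna3 was at 80.9 RPKM in knock-in-labelled retinas and 63.1 RPKM in mutant-labelled retinas, a log2 ratio of 0.36 (p = 0.0107, q = 0.366 in the authors' deposited table). The Chrnb2 transcripts went opposite ways. By its mutant value the one that was lowest in the first comparison was at 1.38 RPKM in knock-in-labelled retinas and 0.580 RPKM in mutant-labelled retinas (log2 ratio 1.25, q = 0.819 in the authors' deposited table). The other was at 1.46 RPKM in knock-in-labelled retinas and 1.58 RPKM in mutant-labelled retinas (log2 ratio -0.11, q = 0.976 in the authors' deposited table). For Chrnb2, the summed ratio of 0.40 thus rests on the less abundant transcript.

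Set through the shared mutant-labelled values, the knock-in-labelled level was 73.1% of the heterozygote level for Chrna3, 82.1% for Chrna4, 82.7% for Chrnb4, 78.7% for Chrna5 and 66.1% for Chrnb2. The tables were normalized separately, and over 5047 genes with 1 transcript in each the mutant value of the knock-in table was at a median of 98.1% of that in the heterozygote table. No test of knock-in against heterozygote can be made from them. The ratio of Chrna3 to Chrnb4 was 2.53 in knock-in-labelled retinas and 2.57 in mutant-labelled retinas, and Chrna3 gave 46.9% of the summed neuronal subunit RPKM in knock-in-labelled retinas and 47.9% in mutant-labelled retinas.

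The subunit values were set beside markers of the cells that carry such receptors and of other tissues. The marker lists were chosen with earlier results of these data known, so nothing is read from the counts of calls in them. Of 15 listed ganglion cell markers, 10 were called lower and none higher in mutant-labelled against heterozygote retinas. Over all genes, 1.09% were called lower and 0.245% higher. All 15 markers had a ratio below 0, and their median log2 ratio was -0.995. The neuronal subunits had a median of -0.81, and all genes had a median of 0.03. The marker list includes neuronal genes such as Elavl4, so it does not single out ganglion cells. The summed RPKM of the 15 markers was 666 in mutant-labelled retinas and 1245 in heterozygote retinas. Pou4f1, a factor of ganglion cells that stays on in the adult, had a log2 ratio of -1.32 and Pou4f2, which drives their differentiation, one of -0.77. The other 8 were the neurofilament genes Nefl and Nefm, the growth cone and microtubule genes Gap43, Stmn2 and Stmn3, Sncg, Ebf3 and Elavl3, with log2 ratios of -1.54 for Nefl to -0.86 for Stmn3. Atoh7, the factor that makes progenitors competent for this fate, had a ratio of -0.40 that was not called (q = 0.527 in the authors' deposited table). The 12 progenitor markers had no call, with a median of 0.29 and a summed RPKM of 3240 in mutant-labelled retinas and 2688 in heterozygote retinas. No pigment epithelium, lens or blood marker was called. Their summed levels were 66.3, 64.1 and 34.8 RPKM in mutant-labelled retinas and 76.5, 91.1 and 30.8 RPKM in heterozygote retinas. The median log2 ratios of the listed markers were 0.51 for pigment epithelium, -0.52 for lens and -0.51 for blood. For pigment epithelium and blood, the sum and the median thus go opposite ways. In these bulk samples fewer cells of a type and less RNA per cell cannot be told apart.

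In knock-in-labelled against mutant-labelled retinas, 1.03% of all genes were called higher. Of 15 ganglion cell markers, 2 were called higher, Pou4f2, the factor named above, and Rbpms, which encodes an RNA-binding protein found in them, at a log2 ratio of 1.23. Their median was 0.45, beside 0.40 for the neuronal subunits and 0.00 for all genes. Their summed RPKM was 894 in knock-in-labelled retinas and 653 in mutant-labelled retinas. Pou4f2 rose to 70.9 RPKM in knock-in-labelled retinas, against 30.5 RPKM in mutant-labelled retinas, a log2 ratio of 1.21, while that of Chrna3 was 0.36; whether the ratios of these genes differ was not tested. Markers of other tissues also moved with the knock-in label. The 10 listed pigment epithelium markers had a summed 160 RPKM in knock-in-labelled retinas and 66.8 RPKM in mutant-labelled retinas, with 7 called higher (Pmel, Dct, Tyr, Tyrp1, Gpnmb, Slc45a2 and Trpm1). The 9 listed lens markers had 167 RPKM in knock-in-labelled retinas and 63.6 RPKM in mutant-labelled retinas, with 3 called higher (Cryaa, Cryab and Foxe3). The 7 listed blood markers had 131 RPKM in knock-in-labelled retinas and 35.1 RPKM in mutant-labelled retinas, with 2 called higher (Hbb-y and Hba-x). Of 11 periocular mesenchyme and neural crest markers 5 were listed, at a summed 18.5 RPKM in knock-in-labelled retinas and 7.62 RPKM in mutant-labelled retinas, with Lum called higher; Sox10, a factor of neural crest, has no row. Since a row needs about 1 RPKM in the higher group, some of these markers have a row only through the knock-in group. Slc45a2 was at 1.28 RPKM in knock-in-labelled retinas and 0.165 RPKM in mutant-labelled retinas. Foxe3 was at 1.05 RPKM in knock-in-labelled retinas and 0 in mutant-labelled retinas. The numbers of markers listed and called thus lean toward the knock-in group. The part of other tissues in the subunit values was not tested.

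**Figure D3:**
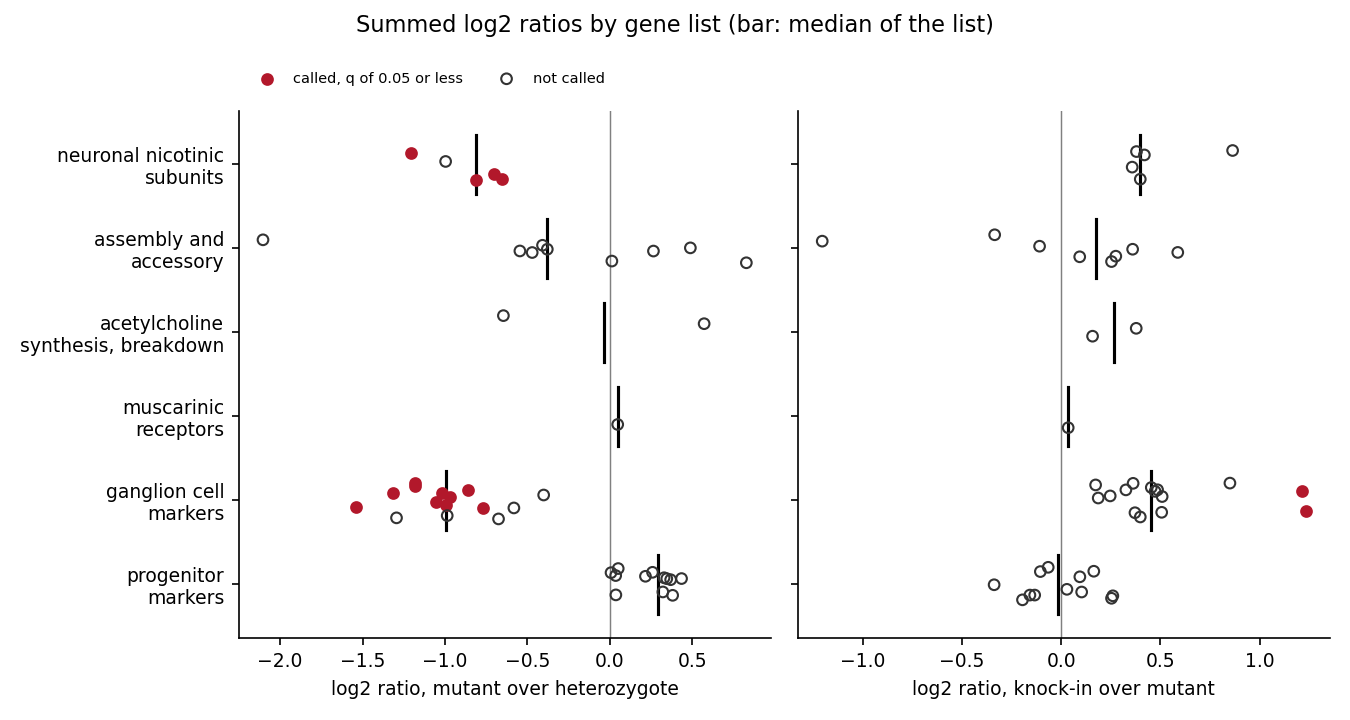
Log2 ratio of summed RPKM for each listed gene of 6 gene lists, for mutant over heterozygote (left) and knock-in over mutant (right); filled points have a transcript at q of 0.05 or less, open points do not, and the black bar is the median of the list. The neuronal nicotinic subunits, median -0.81, and the ganglion cell markers, median -0.995, lie left of 0 on the left, while the median of the progenitor markers is 0.29.

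No listed gene that serves the assembly or placing of nicotinic receptors was called in either comparison. Over all genes, 1.09% were called lower and 0.245% higher for mutant-labelled against heterozygote. For knock-in-labelled against mutant-labelled, 1.03% were called higher and 0.634% lower. No call in so short a list lies near these shares. Of 19 assembly and accessory genes sought, 9 were listed for mutant-labelled against heterozygote, 4 with a log2 ratio above 0 and 5 with one below 0, with a median of -0.38. The most abundant were Agrn, which clusters the muscle receptor, at 106.6 RPKM in mutant-labelled retinas and 141 RPKM in heterozygote retinas, and Ly6e, a small membrane-anchored protein of the family of receptor modulators, at 52.8 RPKM in mutant-labelled retinas and 73.2 RPKM in heterozygote retinas. Other members, named after their values were seen, include a pair of chaperones of neuronal nicotinic receptors. Tmem35, whose product is known as NACHO, was at 8.17 RPKM in mutant-labelled retinas and 11.9 RPKM in heterozygote retinas (q = 0.258 in the authors' deposited table). Ric3 was at 9.22 RPKM in mutant-labelled retinas and 11.999 RPKM in heterozygote retinas (q = 0.993 in the authors' deposited table). The log2 ratios of these chaperones were -0.55 for Tmem35 and -0.38 for Ric3. Of those above 0, Nrg1, the growth factor neuregulin, had a log2 ratio of 0.49, Lypd6, a toxin-like modulator, one of 0.83 and Lrp4, the receptor of agrin, one of 0.26. The Lypd6 value rests mostly on a transcript at 1.95 RPKM in mutant-labelled retinas and 0.227 RPKM in heterozygote retinas (q = 0.993 in the authors' deposited table).

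Lynx1, which dampens nicotinic receptors, held opposite values within 1 gene. A transcript of it was at 8.80 RPKM in mutant-labelled retinas and 5.70 RPKM in heterozygote retinas (q = 0.0556 in the authors' deposited table), the smallest q of the list, and another was at 4.59 RPKM in mutant-labelled retinas and 7.58 RPKM in heterozygote retinas (q = 0.994 in the authors' deposited table). Lynx1 summed to 13.4 RPKM in mutant-labelled retinas and 13.3 RPKM in heterozygote retinas. For knock-in-labelled against mutant-labelled, 8 accessory genes were listed, 5 with a log2 ratio above 0 and 3 with one below 0, with a median of 0.17 and no call. Nrg1 had a log2 ratio of -0.34 and Lypd6 a summed one of -1.20. The Lypd6 value rests on a transcript listed at 0 RPKM in knock-in-labelled retinas and 1.91 RPKM in mutant-labelled retinas (q = 0.783 in the authors' deposited table). The other Lypd6 transcript had a log2 ratio of 0.13. Agrn was at 97.0 RPKM in knock-in-labelled retinas and 104.6 RPKM in mutant-labelled retinas, and Ly6e was at 62.7 RPKM in knock-in-labelled retinas and 51.8 RPKM in mutant-labelled retinas. Tmem35 was at 12.05 RPKM in knock-in-labelled retinas and 8.02 RPKM in mutant-labelled retinas (q = 0.117 in the authors' deposited table).

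Of the 8 genes that make, store or break down acetylcholine, 2 had rows. Bche, the cholinesterase of broad substrate range, was at 14.8 RPKM in mutant-labelled retinas and 23.1 RPKM in heterozygote retinas over 3 transcripts, with a smallest q of 0.239 in the authors' deposited table. It was at 18.8 RPKM in knock-in-labelled retinas and 14.5 RPKM in mutant-labelled retinas. Slc44a1, a choline transporter of most cells, was at 9.05 RPKM in mutant-labelled retinas and 6.09 RPKM in heterozygote retinas (q = 0.373 in the authors' deposited table), and at 9.90 RPKM in knock-in-labelled retinas and 8.87 RPKM in mutant-labelled retinas. Chat, Slc18a3 and Slc5a7, which define a neuron that releases acetylcholine, have no row in the tables and were not analysed here. Of the 5 muscarinic receptor genes Chrm3 had a row, at 1.48 RPKM in mutant-labelled retinas and 1.43 RPKM in heterozygote retinas, and at 1.48 RPKM in knock-in-labelled retinas and 1.45 RPKM in mutant-labelled retinas. The receptor subunits were thus listed at up to 112.9 RPKM while the genes of the transmitter's synthesis had no row.

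The position of the cluster was examined through the 14 other genes listed within 500 kb of it. In mutant-labelled against heterozygote, none of the 14 was called, where 1.09% of all genes were called lower and 0.245% higher. No call among so few genes lies near that share. The log2 ratios of the neighbours ran from -0.49 to 0.92 with a median of -0.04. Each of the 3 cluster genes, at -1.21, -0.81 and -0.65, was below the lowest neighbour. The nearest listed gene before Chrna5 is Psma4, a proteasome subunit 22.9 kb away, at 109.2 RPKM in mutant-labelled retinas and 121 RPKM in heterozygote retinas. AY074887 lies in the same locus, at 3.55 RPKM in mutant-labelled retinas and 3.80 RPKM in heterozygote retinas. The nearest listed gene beyond Chrnb4 is Ube2q2, a ubiquitin-conjugating enzyme 100.3 kb away, at 14.4 RPKM in mutant-labelled retinas and 17.4 RPKM in heterozygote retinas. Other neighbours were also lower without a call: Crabp1, a cytoplasmic retinoic acid-binding protein, had a log2 ratio of -0.49 and Ireb2 one of -0.44. Since the cluster genes were chosen by this contrast, their place below the neighbours is a description.

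In knock-in-labelled against mutant-labelled, the neighbours ran from -0.44 to 0.51, a range that holds Chrna3 and Chrnb4 at 0.36 and 0.38 but not Chrna5 at 0.86. Over all genes, 1.03% were called higher and 0.634% lower. Ireb2, an iron regulatory protein whose locus ends 68.3 kb before Chrna5, was the 1 neighbour called. It was at 38.7 RPKM in knock-in-labelled retinas and 27.1 RPKM in mutant-labelled retinas, a log2 ratio of 0.51 (q = 0.0413 in the authors' deposited table). It was at 27.6 RPKM in mutant-labelled retinas and 37.5 RPKM in heterozygote retinas (log2 ratio -0.44, q = 0.249 in the authors' deposited table). Between Ireb2 and the cluster, Hykk had log2 ratios of 0.09 for mutant over heterozygote and -0.13 for knock-in over mutant, and Psma4 had -0.15 and 0.15.

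**Figure D4:**
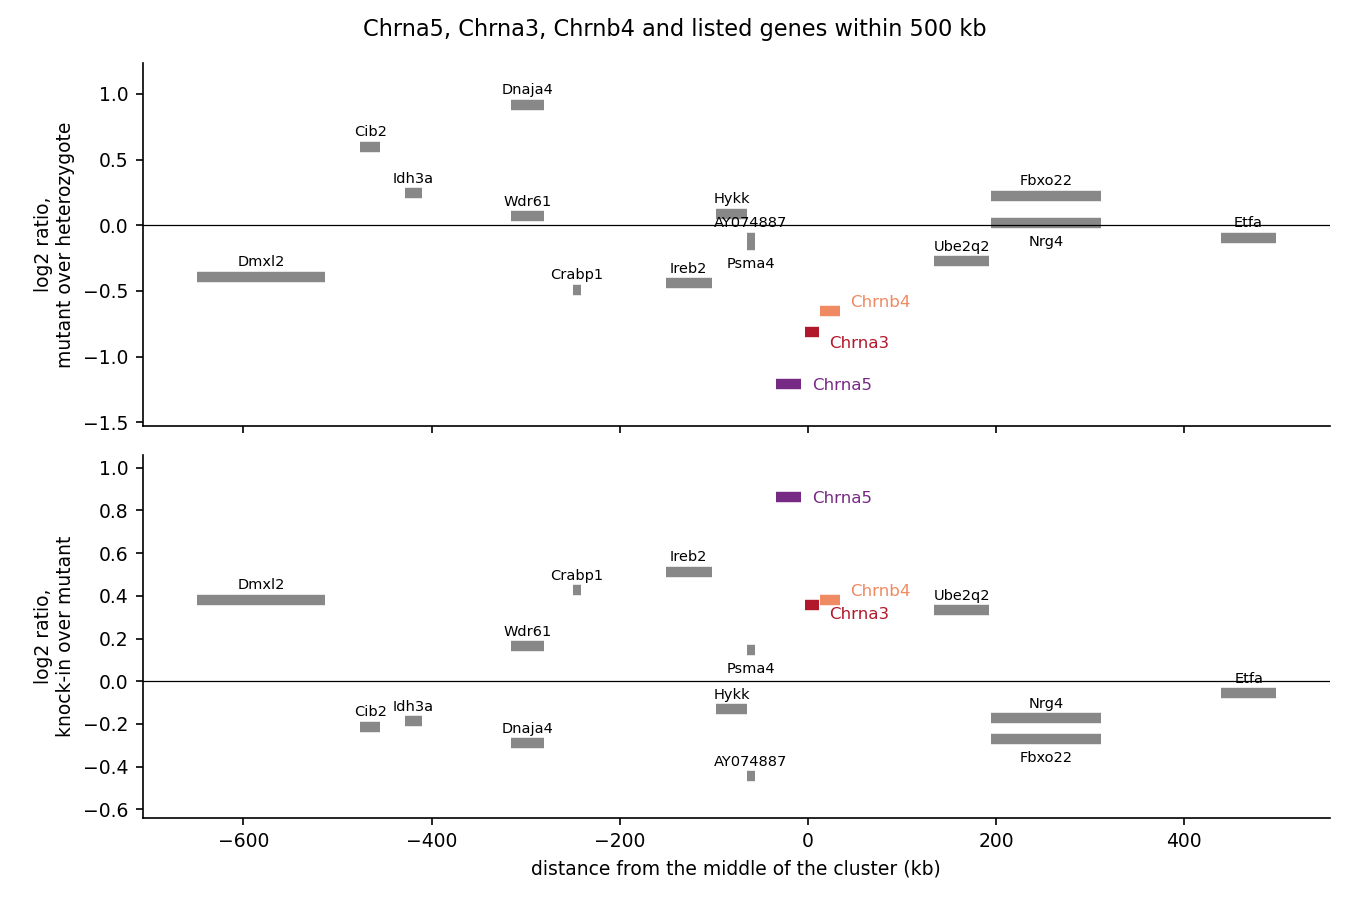
Log2 ratio of summed RPKM of Chrna5, Chrna3, Chrnb4 (coloured) and the 14 other listed genes within 500 kb (grey) for mutant over heterozygote (top) and knock-in over mutant (bottom); each bar spans the authors' locus, as distance in kb from the middle of the cluster, and genes in 1 shared locus have the same span. In the top panel the 3 cluster genes, at -1.21, -0.81 and -0.65, lie below each neighbour; in the bottom panel Chrna3 and Chrnb4, at 0.36 and 0.38, lie among the neighbours.

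The layout of the cluster limits how far its genes can be told apart. The authors' Chrna5 and Chrna3 loci are 3563 bases apart, and the annotations differ: RefSeq has the 2 genes converge and overlap by 1304 bases at their ends, while GENCODE leaves 2331 bases between them. Chrna3 was 36.5 times as abundant as Chrna5 in heterozygote retinas and 48.1 times in mutant-labelled retinas. The authors' Chrna3 locus stops 1232 bases short of the GENCODE end of the gene. Within Chrnb4, GENCODE annotates Gm47877, an antisense gene at 55030783 to 55039429, and the labels do not name a library kit that keeps strand. Reads of this pair cannot be told apart wherever their exons overlap. Whether their exons overlap was not examined. Chrna4 lies on another chromosome, outside this layout, and had a log2 ratio of -0.70.

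For each member in both tables, the 3 genes with the nearest pair of log2 ratios were sought among 11786 other genes, over 3 pooled groups, by Euclidean distance between the pairs. For Chrnb4 the nearest was Bche, at summed log2 ratios of -0.65 for mutant over heterozygote and 0.38 for knock-in over mutant. Its distance was 0.0073, and Thrb, a thyroid hormone receptor, and Gm10069 followed. The most abundant Bche transcript was at -0.46 and 0.20, so this nearness rests partly on less abundant Bche transcripts. For Chrnb2 the nearest was Elavl4, a neuronal RNA-binding protein, at -0.99 and 0.40, followed by Adcyap1, a neuropeptide precursor, and Gng3, a neuronal G protein subunit. For Chrna3 they were Adamts5, an extracellular protease, RP23-114P22.5 and Gm16551, at distances of 0.018 to 0.031. For Chrna4 they were Gfra1, a co-receptor for glial cell line-derived neurotrophic factor, Trim13 and Micu3, at distances of 0.017 to 0.019. For Chrna5 they were Fgd3, Fam134a and Ebf1, at distances of 0.024 to 0.086. With 3 pooled values many genes lie close by, and these names describe nearness only.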

How the data were processed

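Total RNA of 9 retina samples was grouped by the genotype code in the sample titles. Per the labels' protocols, the library kit was TruSeq RNA. Per the submitters' processing notes, Bowtie2, Cufflinks and Cuffdiff were used with build mm10, at versions not given in the sources used here. Per the file headers, the authors deposited 1 RPKM value per transcript and group, pooled over samples, with their log2 fold change, test statistic (a score), p-value and q-value. Depth per sample is unknown.

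The members and gene lists were chosen with earlier results of these data known. RPKM was summed over the listed transcripts of a symbol, and log2 ratios were recomputed without a pseudocount in Python 3.11.15 with pandas 2.3.3; a gene was called if a transcript had q of 0.05 or less. Rows without a symbol (116 and 117 transcripts) or with a date in its place (57 and 55) stayed out of gene values. Authors' loci were written from base 1. Summing and the Benjamini-Hochberg adjustment were tested on simulated data. Genes named are all members; called members of 15 gene lists or else the 2 most abundant; called and nearest neighbours; Neurog2; and the 3 nearest patterns. Atoh7, Crabp1, Hykk, the sex-linked genes, and the accessory genes other than Agrn and Ly6e were named after their values were seen. Whether the 3 samples per group are from different litters is not in the labels. The deposited p-values thus cannot be taken to measure spread between litters. How the authors' tool modelled the spread is not given in the sources used here.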

Additional observations from a re-analysis of the deposited data

How the results depend on the processing

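The count of subunit genes called lower in mutant-labelled against heterozygote retinas was 4 at q of 0.05, and 4 also at q of 0.10, at an unadjusted p of 0.05, with rows of at least 1 RPKM only, and with the most abundant transcript of each gene only. None of these settings could lower the count. The 4 genes had p = 5e-05 and q = 0.0109 in the authors' deposited table. Each had 1 transcript and was above 1 RPKM in heterozygote retinas. An alternative chosen after seeing the data took a two-sided normal p from the deposited test statistic instead of the deposited p, and with it 0 of these genes were called, against 15 transcripts called lower in the whole table. The deposited statistic of Chrna3, -3.18, corresponds to a normal p of 0.00146, where the authors' deposited table gives p = 5e-05, so the calls rest on how the authors' tool turned its statistic into a p. In knock-in-labelled against mutant-labelled retinas the count called higher was 0 at q of 0.05 by Cuffdiff, 0 at q of 0.10, 0 with the normal p and 4 at an unadjusted p of 0.05. Of 54 values of a summed log2 ratio under another pseudocount, filter, centring or transcript choice, 1 changed sign: Chrnb2, which was not called, was at -0.11 for knock-in over mutant by its most abundant transcript and at 0.40 summed. A pseudocount cannot change the sign of a ratio. The filter changed no ratio that it kept, and the transcript choice changed none of a gene with 1 transcript. The count of sign changes thus says little about stability. A pseudocount of 1 RPKM moved the Chrna5 ratios to -0.81 and 0.55. No paired analysis was possible because the files hold pooled group values, and for the same reason no replicate could be left out.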

Other observations

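Of 6 starburst amacrine markers, 2 had rows, Sox2 and Isl1, both also expressed by other retinal cells. Isl1, which ganglion cells share, was at 43.3 RPKM in mutant-labelled retinas and 69.1 RPKM in heterozygote retinas, and Sox2, which progenitors share, was at 42.4 RPKM in mutant-labelled retinas and 33.9 RPKM in heterozygote retinas. Crabp1, the cytoplasmic retinoic acid-binding protein 207.8 kb before Chrna5, was the most abundant gene near the cluster, at 547 RPKM in mutant-labelled retinas and 768 RPKM in heterozygote retinas (q = 0.132 in the authors' deposited table), and at 721 RPKM in knock-in-labelled retinas and 537 RPKM in mutant-labelled retinas (q = 0.175 in the authors' deposited table). Lypd1, a small modulator of nicotinic receptors, was at 0.369 RPKM in mutant-labelled retinas and 1.59 RPKM in heterozygote retinas (q = 0.993 in the authors' deposited table), with no row in the other table.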
